A study of Mus musculus with 36 samples.

Results

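Semaphorins are guidance ligands, and plexins and neuropilins are their receptors on the cell surface. The genes described here are the semaphorins, plexins and neuropilins that the count table of sorted muscle cells lists, chosen by gene symbol. They are 31 of 52636 genes, made up of 20 semaphorins, 9 plexins and 2 neuropilins. All 31 had enough counts to be tested. RNA was measured by RNA-seq in cells that FACS sorted from diaphragm, pectoral and limb muscles of juvenile mice. The labels write ages from P15-21 to P15-46, with the second number rising by 1 from library to library up to 46, while the study's methods place the mice at the young end of that range, so age was not used. Every mouse carried 2 reporter transgenes, GFP under the S100b promoter and DsRed under that of Cspg4, which encodes NG2. The sorted groups were cells with both reporters, labelled NG2DsRed+/S100GFP+ and taken as perisynaptic Schwann cells (PSCs, n = 9 libraries), cells with GFP and no DsRed, labelled S100GFP+ (n = 8, where the design text of the series counts 7 and names no library as left out), and cells with DsRed and no GFP, labelled NG2DsRed+ (n = 10). Each library came from cells of 1 mouse, and whether a mouse gave more than 1 of the libraries is not stated in the sources used here.

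Class 3 semaphorins are secreted and most of them act through a complex of a neuropilin, which binds the ligand, and a class A plexin, which passes the signal into the cell. Semaphorins of classes 4 to 7 are held in the membrane by a transmembrane segment or a lipid anchor and bind plexins directly. Plexins act on small GTPases, integrins and the cytoskeleton. The family is known for turning growing axons away from a source of ligand and for shaping blood vessels, and PSCs are the glia that cap the axon ending at the neuromuscular junction.

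The libraries held between 5221655 and 9592875 counts on genes. Levels are given as CPM (counts per 1000000 counts, TMM-normalised), and CPM per kb of annotated exon wherever genes are compared with each other. Of the Schwann lineage markers, the transcription factor Sox10 was at 505.9 ± 103.1 CPM in PSCs (SD, n = 9), 20.2 ± 12.0 CPM in S100GFP+ cells (n = 8) and 4.45 ± 2.44 CPM in NG2DsRed+ cells (n = 10), and Erbb3, a neuregulin receptor, was at 358 ± 136, 16.0 ± 9.85 and 2.79 ± 1.44 CPM, so the S100GFP+ libraries held little of these 2 RNAs. The S100GFP+ libraries held 18760 to 42920 CPM of fibroblast markers (Col3a1, Col1a1 and Dcn leading, 7 of 7 markers above 1 CPM on average), against 703 to 2874 CPM in PSCs, and 1180 to 11140 CPM of macrophage and leukocyte markers (7 of 7), against 35.5 to 570 CPM. NG2DsRed+ libraries held 2244 to 19190 CPM of the fibroblast markers and 13.3 to 72.1 CPM of the macrophage and leukocyte markers. Pericyte and smooth muscle markers reached 7183 to 15760 CPM in NG2DsRed+ libraries and 789.5 to 1456 CPM in PSCs, where Cspg4, the gene behind the DsRed reporter, gave 689 CPM on average (665 CPM in NG2DsRed+ cells). Without Cspg4 that sum was 6691 to 14900 CPM in NG2DsRed+ libraries and 199 to 738 CPM in PSCs. Endothelial markers were at 1343 to 3050 CPM in NG2DsRed+ libraries and 141 to 633 CPM in PSCs. No defining marker of these lists was at 0 in a whole group. PSC library 18 and S100GFP+ libraries 14, 17 and 22 stood apart from the rest of their groups, and the members whose calls changed without them are named further on. NG2DsRed+ libraries 28 and 35 also differed from their group. They held 19190 and 15140 CPM of fibroblast markers, against 2244 to 10570 CPM in the others. Pericyte and smooth muscle markers were at 7801 and 7183 CPM, against 9769 to 15760 CPM. Their median correlation with the group was 0.912 and 0.919, against 0.935 to 0.953. No fit left out only these 2 libraries.

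Against S100GFP+ cells, 6 of the 31 genes rose in PSCs, 10 fell and 15 did not pass the test (edgeR quasi-likelihood test, adjusted p under 0.05). This is 51.6% of the family, beside 47% of all 15330 genes tested (22.9% higher and 24.1% lower), so the share called was near that of genes at large. Against NG2DsRed+ cells 11 were higher, 14 were lower and 6 did not pass, which is 80.6% beside 44% of all genes (20.9% higher and 23.1% lower). Between the other two groups 14 genes were higher in S100GFP+ cells, 10 were higher in NG2DsRed+ cells and 7 did not pass, or 77.4% beside 33.3% (18.1% and 15.2%). The median log2 fold change of the family was -0.38 for PSCs against S100GFP+ cells, -0.28 for PSCs against NG2DsRed+ cells and 0.64 for S100GFP+ against NG2DsRed+ cells, where the medians over all genes were 0.04, 0.02 and -0.02. The comparisons share libraries, and in sorted populations of this kind fewer cells of a type and less RNA per cell cannot be told apart.

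**Figure D1:**
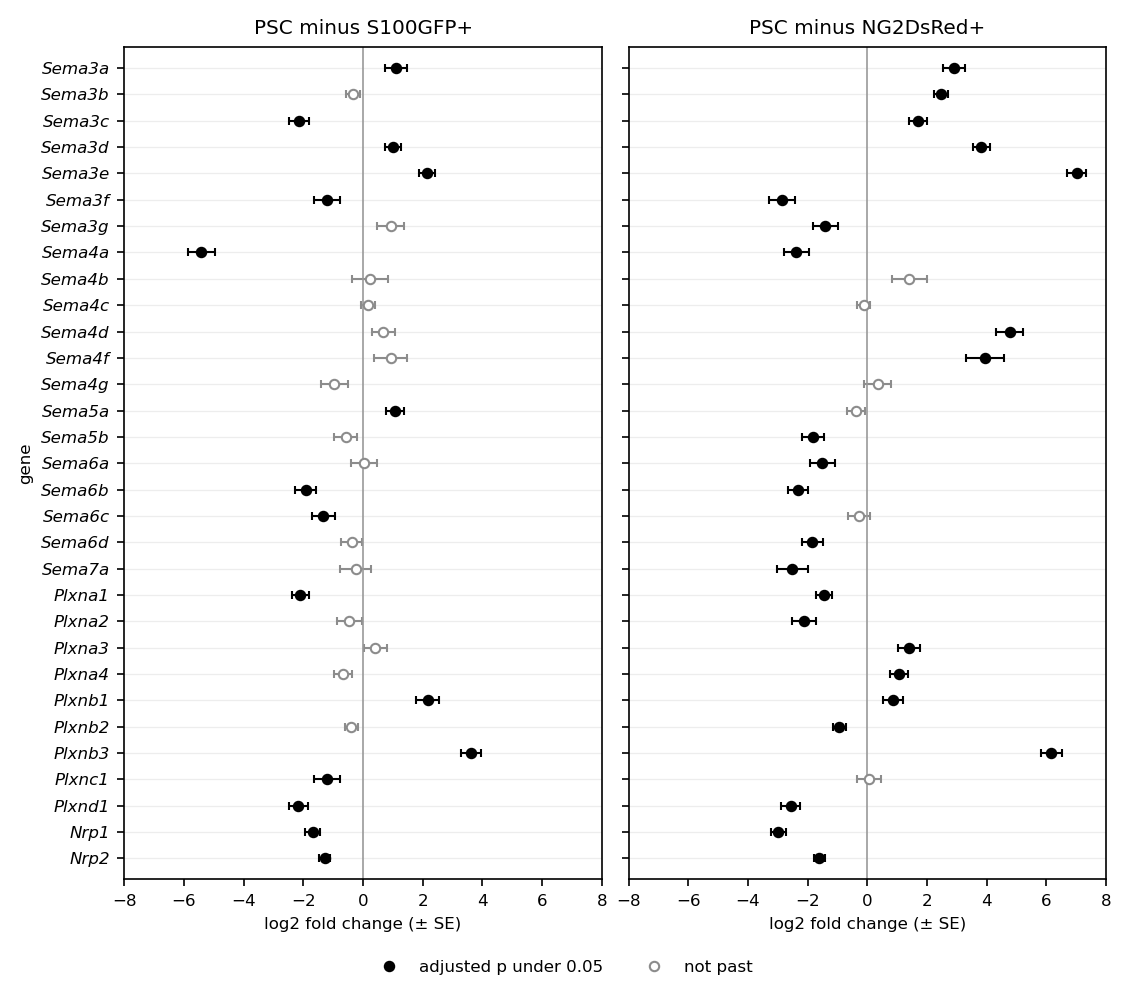
Log2 fold changes of the 31 genes with their standard errors, PSCs minus S100GFP+ cells on the left and PSCs minus NG2DsRed+ cells on the right. Filled points passed an adjusted p under 0.05 (6 higher and 10 lower on the left, 11 higher and 14 lower on the right), and Sema3e and Plxnb3 lie farthest to the right in the right panel, at 7.01 and 6.17.

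By mean level, 9 genes were highest in PSCs, 8 in S100GFP+ cells and 14 in NG2DsRed+ cells, which is 29.0%, 25.8% and 45.2% of the family beside 40.4%, 31.1% and 28.4% of all genes tested. The libraries of PSCs lay wholly above those of S100GFP+ cells for 2 genes and wholly below for 5 (5.24% and 10.3% of all genes), and wholly above those of NG2DsRed+ cells for 4 and below for 11 (5.08% and 8.83%). S100GFP+ libraries lay wholly above NG2DsRed+ libraries for 7 genes and below for 1 (7.21% and 4.38%). Only Sema3e and Plxnb3 had all 9 PSC libraries above all others, and only Sema3c and Sema4a all 8 S100GFP+ libraries, while 0 genes had all NG2DsRed+ libraries above. Over all genes tested, 3.24%, 4.92% and 2.31% were higher in every library of PSCs, of S100GFP+ cells and of NG2DsRed+ cells than in all others. The 9 genes highest in PSCs were Sema3a, Sema3d, Sema3e, Sema4b, Sema4d, Sema4f, Plxna3, Plxnb1 and Plxnb3. The 14 highest in NG2DsRed+ cells included both neuropilins, Plxnd1, Plxna2 and Plxnb2, and 9 semaphorins of which 2 were of class 3.

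Sema3e, a secreted ligand that binds Plxnd1 without needing a neuropilin, had the largest difference of the family between PSCs and NG2DsRed+ cells. Its level in PSC libraries was 71.0 CPM at the lowest, 95.9 at the median and 176 at the highest, and in S100GFP+ libraries 11.1, 23.2 and 43.9 CPM. NG2DsRed+ libraries had 0, 0.861 and 1.56 CPM, from 55 counts over 9 of the 10 libraries. In the library at 0 counts (library 13) a floor of 3 counts is 0.534 CPM. The 3 groups did not overlap, and every PSC library lay above every S100GFP+ library, which in turn lay above every NG2DsRed+ library. PSCs differed by a log2 fold change of 2.14 ± 0.26 (SE) against S100GFP+ cells (adjusted p = 6.70e-08) and 7.01 ± 0.32 against NG2DsRed+ cells (adjusted p = 2.08e-16).

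Plxnb3, a class B plexin known as a receptor of Sema5a and found in glia, had 66.3, 108 and 209 CPM at the lowest, median and highest of the PSC libraries. S100GFP+ libraries had 2.44, 11.1 and 20.9 CPM and NG2DsRed+ libraries 0.526, 1.65 and 3.55 CPM. All PSC libraries were above all others, while the 2 other groups overlapped. The difference on the log2 scale was 3.63 ± 0.34 against S100GFP+ cells (12.4-fold, adjusted p = 3.50e-10) and 6.17 ± 0.36 against NG2DsRed+ cells (72.0-fold, adjusted p = 2.22e-14). Per kb of exon, Plxnb3 was the highest of the 9 plexins in PSCs, at 19.7 CPM per kb, and the lowest in NG2DsRed+ cells, at 0.269 CPM per kb.

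The sequences upstream of these 2 genes are shown because they are the only members whose PSC libraries lay above all others. They are RefSeq promoter windows of the GRCm38.p6 build, 250 bases before the start of Sema3e (chr5:14025026-14025275, plus strand) and the 237 bases of the Plxnb3 window that lie outside its annotated exon (chrX:73756853-73757089, plus strand). Capitals mark ACAAAG or AACAAT on either strand, core letters of the kind that SOX family factors bind, and the second reads as ATTGTT on the strand printed.
Sema3e: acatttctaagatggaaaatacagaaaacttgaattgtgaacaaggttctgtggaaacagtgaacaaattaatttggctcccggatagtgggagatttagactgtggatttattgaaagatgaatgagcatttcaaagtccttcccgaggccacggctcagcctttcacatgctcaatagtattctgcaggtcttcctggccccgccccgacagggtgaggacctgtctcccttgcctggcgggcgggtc
Plxnb3: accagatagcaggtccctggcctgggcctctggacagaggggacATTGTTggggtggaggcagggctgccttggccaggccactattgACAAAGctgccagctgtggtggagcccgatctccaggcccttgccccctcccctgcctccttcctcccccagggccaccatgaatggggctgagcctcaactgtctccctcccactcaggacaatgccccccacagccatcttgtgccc
The Plxnb3 window held both sets of letters once and the Sema3e window neither, which says only that these letters are not in that window. Of 32851 windows of this kind over all genes, 16.5% held ACAAAG, 9.42% AACAAT and 24% either. RefSeq windows matched 26 of the 31 genes, with 37 windows, of which 5 held ACAAAG, 2 held AACAAT and 6 held either (those of Sema3a, Sema3d, Sema4d, Sema4f, Sema6d and Plxnb3).

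Of the 7 class 3 semaphorins, Sema3a, Sema3d and Sema3e were higher in PSCs than in both other groups, Sema3c and Sema3f were lower than in S100GFP+ cells, and Sema3f and Sema3g were lower than in NG2DsRed+ cells. Of these genes 71.4% were called against S100GFP+ cells, beside 47% of all genes, and all 7 against NG2DsRed+ cells, beside 44%. Sema3d (chr5:12383385-12588948), Sema3a (chr5:13125414-13602565), Sema3e (chr5:14025276-14256689) and Sema3c (chr5:17574281-17730268) lie in this order on chromosome 5 of GRCm38, all on the plus strand, and the first 3 are the class 3 genes whose mean was highest in PSCs. Sema3b (chr9:107597674-107609229) and Sema3f (chr9:107681500-107710475) both lie on chromosome 9 and Sema3g lies on chromosome 14.

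Sema3d, a ligand that acts through Nrp1, had 28.9, 84.6 and 111 CPM at the lowest, median and highest of the PSC libraries, 26.5, 34.2 and 61.05 CPM in S100GFP+ libraries and 1.85, 5.55 and 9.23 CPM in NG2DsRed+ libraries. PSCs and S100GFP+ cells overlapped, with 5 PSC libraries above all S100GFP+ libraries, and both groups lay wholly above NG2DsRed+ cells. The log2 fold change of PSCs was 1.00 ± 0.27 against S100GFP+ cells (adjusted p = 0.00266) and 3.82 ± 0.28 against NG2DsRed+ cells (adjusted p = 2.83e-12). Sema3a, the classical ligand of Nrp1 that collapses growth cones, ran from 5.61 over 19.9 to 31.65 CPM in PSCs, from 5.26 over 9.54 to 12.5 CPM in S100GFP+ cells and from 0.567 over 2.00 to 6.14 CPM in NG2DsRed+ cells. Library 18 was the lowest PSC library for this gene, and the other 8 were above all libraries of both other groups. On the log2 scale it was higher by 1.09 ± 0.37 against S100GFP+ cells (adjusted p = 0.0167, and 0.90, adjusted p = 0.185, in the libraries from 25% of the share described further on) and 2.91 ± 0.37 against NG2DsRed+ cells (adjusted p = 1.92e-07).

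Sema3c, a ligand of both neuropilins and of Plxnd1, was the most abundant member per kb in S100GFP+ cells (46.8 CPM per kb), and its S100GFP+ libraries had 213, 307.5 and 508 CPM at the lowest, median and highest. PSC libraries had 37.0, 76.5 and 96.9 CPM and NG2DsRed+ libraries 5.67, 15.6 and 58.7 CPM. All PSC libraries were below all S100GFP+ libraries, and 8 of 9 were above all NG2DsRed+ libraries. The log2 fold change of PSCs was -2.15 ± 0.33 against S100GFP+ cells (adjusted p = 2.62e-06) and 1.71 ± 0.31 against NG2DsRed+ cells (adjusted p = 3.81e-05). The second of these was not past the threshold in the 5 PSC and 3 NG2DsRed+ libraries in which Lars2, Gm23935 and Gm15564 took under 25% of counts, a split described further on (1.07, adjusted p = 0.111). These NG2DsRed+ libraries were 2, 28 and 35, with Sema3c at 5.67, 58.7 and 43.8 CPM. Sema3b, which acts through Nrp2, had 20.15, 77.1 and 88.35 CPM in PSCs, 73.0, 92.9 and 109 CPM in S100GFP+ cells and 6.585, 11.3 and 22.5 CPM in NG2DsRed+ cells. It was 2.48 ± 0.24 higher on the log2 scale in PSCs than in NG2DsRed+ cells (adjusted p = 7.79e-10), and its difference of -0.35 ± 0.24 from S100GFP+ cells did not pass (adjusted p = 0.234).

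Sema3f, a ligand of Nrp2, and Sema3g, a class 3 ligand known from blood vessels, had their highest means in NG2DsRed+ cells. Sema3f had 0.350, 1.79 and 8.67 CPM in PSCs, 1.75, 5.57 and 16.8 CPM in S100GFP+ cells and 12.1, 25.0 and 32.1 CPM in NG2DsRed+ cells. No PSC library reached the lowest NG2DsRed+ library, and the log2 fold change was -2.86 ± 0.43 (adjusted p = 3.09e-06). Against S100GFP+ cells it was -1.22 ± 0.44 (adjusted p = 0.0228), and this call rested on S100GFP+ libraries 14, 17 and 22, without which the value was -0.23 (adjusted p = 0.708); it was also lost without library 17 alone (-0.94, adjusted p = 0.0783) or library 22 alone (-1.05, adjusted p = 0.0569). Sema3g had 1.23, 21.9 and 43.3 CPM in PSCs, 2.61, 8.21 and 41.6 CPM in S100GFP+ cells and 38.8, 73.2 and 95.8 CPM in NG2DsRed+ cells, and was 1.42 lower on the log2 scale in PSCs than in NG2DsRed+ cells (-1.42 ± 0.42, adjusted p = 0.00695). Its difference from S100GFP+ cells, 0.92 ± 0.45, did not pass with all libraries (adjusted p = 0.0937) and passed without PSC library 18 (1.14, adjusted p = 0.0147), without S100GFP+ library 17 (1.41, adjusted p = 0.00835) and without S100GFP+ library 22 (1.13, adjusted p = 0.0485). Without S100GFP+ libraries 14, 17 and 22 it was 2.07 (adjusted p = 6.59e-04), and with PSC library 18 left out as well 2.23 (adjusted p = 2.22e-06).

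**Figure D2:**
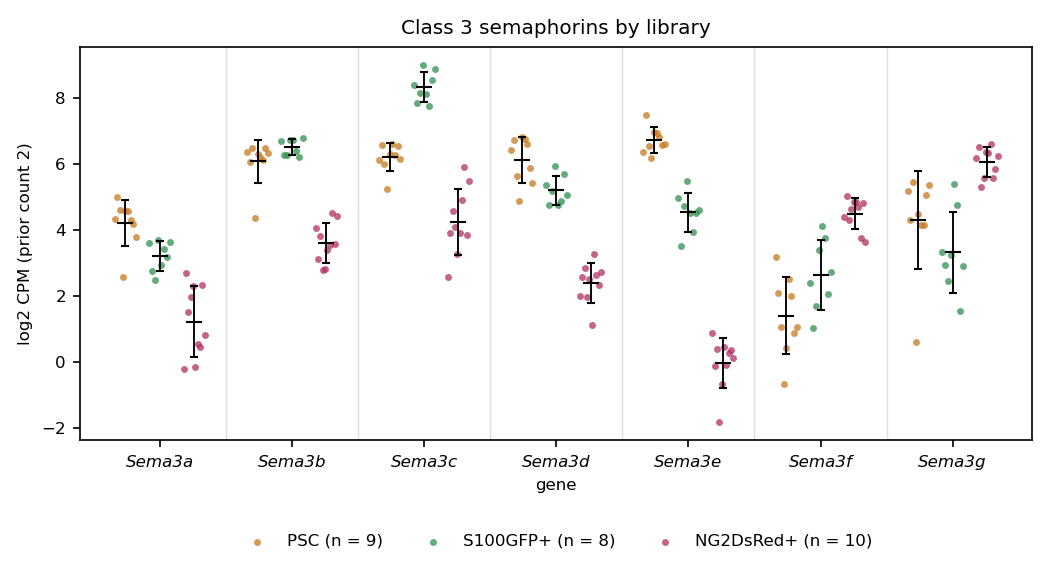
Log2 CPM (prior count 2) of the 7 class 3 semaphorins, 1 point per library, with the mean and SD of each group in black. Sema3a, Sema3d and Sema3e are highest in PSCs, Sema3c stands highest in S100GFP+ cells, and Sema3f and Sema3g are highest in NG2DsRed+ cells; the low PSC point of Sema3a, Sema3b, Sema3c, Sema3f and Sema3g is library 18.

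Summed per kb of exon, the class 3 semaphorins came to 53.5 ± 12.8 CPM per kb in PSCs (SD, n = 9), 78.0 ± 18.6 in S100GFP+ cells (n = 8) and 26.3 ± 4.70 in NG2DsRed+ cells (n = 10). In PSCs the sum was shared among Sema3b (27.9%), Sema3e (21.7%) and Sema3c (19.7%). In S100GFP+ cells Sema3c alone made up 60.0%, and in NG2DsRed+ cells Sema3g made up 57.3%.

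Among the 13 membrane-bound semaphorins, 1 was higher in PSCs than in S100GFP+ cells and 3 were lower, and 2 were higher than in NG2DsRed+ cells and 6 lower. These are 30.8% and 61.5% of them, beside 47% and 44% of all genes. Sema4a, a class 4 semaphorin known from immune cells and a ligand of Plxnd1, differed most. It had 0.1565, 0.429 and 1.82 CPM at the lowest, median and highest of the PSC libraries, 7.80, 36.5 and 70.1 CPM in S100GFP+ libraries and 2.36, 3.98 and 7.45 CPM in NG2DsRed+ libraries. The PSC total was 67 counts over 9 libraries, every one of them below all libraries of both other groups. In PSCs the log2 fold change was -5.42 ± 0.46 against S100GFP+ cells (42.7-fold, adjusted p = 5.36e-11) and -2.38 ± 0.42 against NG2DsRed+ cells (adjusted p = 2.92e-05). Within the S100GFP+ libraries, Sema4a was at 36.4 to 70.1 CPM in the 5 with 5729 to 11140 CPM of macrophage and leukocyte markers and at 7.80 to 21.5 CPM in libraries 14, 17 and 22, with 1180 to 3690 CPM. The part of those cells in the result was not tested.

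Sema4d, a ligand of Plxnb1 also known as CD100, had 6.78, 10.9 and 42.9 CPM in PSCs, 5.29, 10.1 and 20.3 CPM in S100GFP+ cells and 0, 0.462 and 1.46 CPM in NG2DsRed+ cells, where 40 counts fell on 9 of 10 libraries. In NG2DsRed+ library 9, which had no count, a floor of 3 counts is 0.381 CPM. Both GFP groups lay wholly above NG2DsRed+ cells, with a log2 fold change of 4.76 ± 0.45 for PSCs (adjusted p = 6.80e-10), and did not differ past the threshold from each other (0.67 ± 0.39, adjusted p = 0.160). Sema4f, another class 4 semaphorin, was low in all groups, at 0.526 to 6.50 CPM in PSCs, 0.529 to 3.46 CPM in S100GFP+ cells and 0 to 0.890 CPM in NG2DsRed+ cells, where 10 counts fell on 5 libraries. It was higher in PSCs than in NG2DsRed+ cells by 3.95 ± 0.64 on the log2 scale (adjusted p = 8.92e-06), a value that rests on those few counts, and its difference from S100GFP+ cells did not pass (0.92 ± 0.56, adjusted p = 0.186).

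Sema5a, a semaphorin with thrombospondin repeats that binds Plxnb3, was the 1 membrane-bound semaphorin higher in PSCs than in S100GFP+ cells. PSC libraries had 8.06, 87.1 and 130 CPM at the lowest, median and highest, S100GFP+ libraries 24.7, 41.5 and 65.0 CPM, and NG2DsRed+ libraries 56.1, 109 and 178 CPM. Apart from library 18, the lowest of all 27, every PSC library was above every S100GFP+ library. Its log2 fold change was 1.07 ± 0.31 against S100GFP+ cells (adjusted p = 0.00538, and 0.98, adjusted p = 0.143, in the libraries from 25% of that share) and -0.38 ± 0.29 against NG2DsRed+ cells, which did not pass (adjusted p = 0.298). Its relative Sema5b had 1.23 to 5.05 CPM in PSCs, 1.50 to 12.9 CPM in S100GFP+ cells and 4.68 to 17.5 CPM in NG2DsRed+ cells, and was lower in PSCs than in NG2DsRed+ cells (-1.82 ± 0.36, adjusted p = 1.27e-04) and not past the threshold against S100GFP+ cells (-0.59 ± 0.37, adjusted p = 0.203).

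The class 6 semaphorins bind class A plexins across cell contacts. Sema6a, Sema6b and Sema6d were lower in every PSC library than in every NG2DsRed+ library. For Sema6a the PSC libraries had 2.98, 45.3 and 58.9 CPM, the S100GFP+ libraries 10.7, 18.4 and 135 CPM and the NG2DsRed+ libraries 68.6, 119 and 168 CPM, with a log2 fold change of -1.51 ± 0.42 against NG2DsRed+ cells (adjusted p = 0.00399). The S100GFP+ libraries fell into 2 sets, 49.05 to 135 CPM in libraries 14, 17 and 22 and 10.7 to 19.3 CPM in the other 5. PSCs differed from S100GFP+ cells by 0.04 ± 0.43 with all libraries (adjusted p = 0.956) and by 1.55 without those 3 (adjusted p = 0.00124).

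Sema6d had 0.350, 19.9 and 28.8 CPM in PSCs, 10.9, 23.2 and 38.8 CPM in S100GFP+ cells and 38.0, 60.6 and 86.4 CPM in NG2DsRed+ cells, and was lower in PSCs than in NG2DsRed+ cells by a log2 fold change of -1.84 ± 0.34 (adjusted p = 5.50e-05). Sema6b had 0.175, 2.95 and 6.58 CPM in PSCs, 2.885, 10.9 and 22.5 CPM in S100GFP+ cells and 9.89, 14.8 and 23.0 CPM in NG2DsRed+ cells, and was lower in PSCs than in both (-1.93 ± 0.35 against S100GFP+ cells, adjusted p = 4.22e-05, and -2.33 ± 0.34 against NG2DsRed+ cells, adjusted p = 2.05e-06). Of this class only Sema6c had its highest mean in S100GFP+ cells, with 0.350 to 10.4 CPM in PSCs, 7.48 to 15.2 CPM in S100GFP+ cells and 1.28 to 9.54 CPM in NG2DsRed+ cells. It was lower in PSCs than in S100GFP+ cells (-1.33 ± 0.37, adjusted p = 0.00431), and the value held its direction but not its call within the libraries in which those 3 genes took under 25% of counts (-1.32, adjusted p = 0.0538) and within the rest (-1.13, adjusted p = 0.106). Between S100GFP+ and NG2DsRed+ cells it passed at 1.05 ± 0.36 (adjusted p = 0.0246) and not without S100GFP+ library 1 (0.97, adjusted p = 0.0542).

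Sema7a, a lipid-anchored ligand of Plxnc1 and of integrins, had 2.075, 4.23 and 11.2 CPM in PSCs and 11.4, 30.25 and 43.4 CPM in NG2DsRed+ cells, which did not overlap (-2.51 ± 0.51, adjusted p = 1.66e-04). In S100GFP+ cells it had 5.12 to 21.05 CPM in libraries 14, 17 and 22 and 0.523 to 2.76 CPM in the other 5. The difference between PSCs and S100GFP+ cells was -0.25 ± 0.52 with all libraries (adjusted p = 0.723) and 1.81 without those 3 (adjusted p = 0.00152), so that its direction depended on them. Sema4b, Sema4c and Sema4g, further class 4 semaphorins, passed in neither comparison of PSCs in the main fit. With limma-voom on all libraries, Sema4b (2.01, adjusted p = 0.00492) and Sema4c (-0.45, adjusted p = 0.0351) passed against NG2DsRed+ cells. With DESeq2's size factors in edgeR, Sema4b passed there as well (1.45, adjusted p = 0.0499). Sema4c, a ligand of Plxnb2, had 22.95 to 64.65 CPM in PSCs, 18.4 to 66.7 CPM in S100GFP+ cells and 26.6 to 53.6 CPM in NG2DsRed+ cells. Its log2 fold changes in the main fit lay between -0.30 and 0.17, and none passed. Without S100GFP+ libraries 14, 17 and 22 it was higher in PSCs than in S100GFP+ cells (0.60, adjusted p = 0.0353) and lower in S100GFP+ than in NG2DsRed+ cells (-0.71, adjusted p = 0.0157). With the share of Lars2, Gm23935 and Gm15564 as a term these were 0.58 (adjusted p = 0.00824) and -0.39 (adjusted p = 0.0471). Sema4g had 0.175 to 4.38, 1.875 to 8.06 and 0.456 to 4.255 CPM, and was lower in PSCs than in S100GFP+ cells on leaving out PSC library 23 alone (-1.18, adjusted p = 0.0403, against -0.96, adjusted p = 0.0890, with all libraries). It was higher in S100GFP+ than in NG2DsRed+ cells (1.31 ± 0.46, adjusted p = 0.0261), a call lost without S100GFP+ library 17 (1.19, adjusted p = 0.0545) or 22 (1.07, adjusted p = 0.0792). Together the membrane-bound semaphorins summed to 32.8 ± 3.72 CPM per kb in PSCs, 38.3 ± 9.44 in S100GFP+ cells and 53.95 ± 7.06 in NG2DsRed+ cells (SD), with Sema4c leading in the first 2 groups (25.8% and 19.6%) and Sema6a in the last (25.3%).

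**Figure D3:**
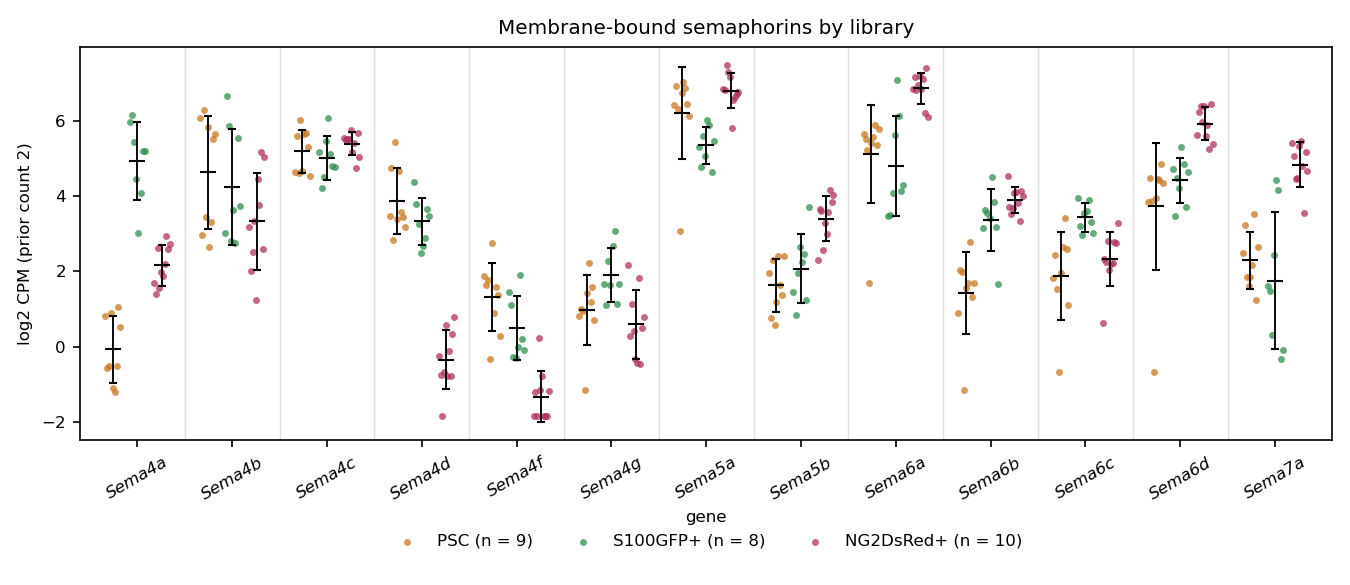
Log2 CPM (prior count 2) of the 13 membrane-bound semaphorins, 1 point per library, with the mean and SD of each group in black. Sema4a is lowest in PSCs, Sema4d and Sema4f are lowest in NG2DsRed+ cells, and Sema4b, Sema6a and Sema7a each spread into 2 clusters of points among the S100GFP+ libraries.

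Of the 9 plexins, Plxnb1 and Plxnb3 were higher in PSCs than in S100GFP+ cells and Plxna1, Plxnc1 and Plxnd1 were lower. Against NG2DsRed+ cells Plxna3, Plxna4, Plxnb1 and Plxnb3 were higher and Plxna1, Plxna2, Plxnb2 and Plxnd1 were lower. These are 55.6% and 88.9% of the plexins, beside 47% and 44% of all genes. Plxnd1, the receptor that Sema3e binds directly and that is best known from endothelium, had 12.95, 32.2 and 76.8 CPM in PSCs, 118, 177 and 223 CPM in S100GFP+ cells and 97.0, 255 and 327 CPM in NG2DsRed+ cells. Every PSC library was below every library of both other groups. The log2 fold change was -2.17 ± 0.32 against S100GFP+ cells (adjusted p = 2.18e-06) and -2.56 ± 0.32 against NG2DsRed+ cells (adjusted p = 1.26e-07), while the other groups did not differ past the threshold (-0.39 ± 0.31, adjusted p = 0.360). Plxna1, a partner of neuropilins and of class 5 and 6 semaphorins, was also lower in every PSC library than in all others, with 5.08, 29.0 and 57.35 CPM in PSCs, 98.1, 124 and 236 CPM in S100GFP+ cells and 65.6, 86.9 and 124 CPM in NG2DsRed+ cells. Its log2 fold changes were -2.10 ± 0.28 (adjusted p = 3.36e-07) and -1.46 ± 0.27 (adjusted p = 4.47e-05). Unlike Plxnd1, it had its highest mean in S100GFP+ cells. Between S100GFP+ and NG2DsRed+ cells it did not pass in the main fit. It passed there in 10 of 38 alternatives, among them DESeq2's Wald test (0.70, adjusted p = 0.0381) and limma-voom (0.61, adjusted p = 0.00357). An antisense gene, Gm26811, covers 10.7% of the exon bases of Plxna1, and the sources used here do not say whether reads were counted by strand.

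Plxnb1, the receptor of Sema4d, had 1.93, 54.5 and 97.5 CPM in PSCs, 6.125, 13.4 and 20.1 CPM in S100GFP+ cells and 20.5, 32.1 and 42.9 CPM in NG2DsRed+ cells. The lowest PSC value was that of library 18 and the next lowest was 36.95 CPM, so the other 8 were above all S100GFP+ libraries. Its log2 fold change was 2.17 ± 0.38 against S100GFP+ cells (adjusted p = 2.74e-05) and 0.86 ± 0.34 against NG2DsRed+ cells (adjusted p = 0.0422). The latter was a near call, lost on leaving out any of 8 libraries in turn (PSC library 6, 23 or 31, or NG2DsRed+ library 7, 9, 21, 26 or 30), with values of 0.73 to 0.87 and adjusted p of 0.0506 to 0.0909, and it was 1.09 without PSC library 18. Plxnb2, a receptor of Sema4c, had 32.3, 48.0 and 103 CPM in PSCs, 61.0, 73.9 and 90.7 CPM in S100GFP+ cells and 63.7, 102 and 170 CPM in NG2DsRed+ cells, and was lower in PSCs than in NG2DsRed+ cells (-0.94 ± 0.22, adjusted p = 8.59e-04) and not past the threshold against S100GFP+ cells (-0.39 ± 0.23, adjusted p = 0.172). The latter passed without PSC library 31 (-0.54, adjusted p = 0.0489).

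Plxna2, a receptor of Sema6a, had 9.46, 24.0 and 34.0 CPM in PSCs and 52.9, 99.4 and 203 CPM in NG2DsRed+ cells, without overlap (-2.12 ± 0.42, adjusted p = 1.11e-04). In S100GFP+ cells it had 37.4 to 96.25 CPM in libraries 14, 17 and 22 and 8.25 to 13.6 CPM in the other 5, and the difference of PSCs from S100GFP+ cells went from -0.47 ± 0.42 (adjusted p = 0.380) to 1.22 without those 3 (adjusted p = 0.00181). Plxna4, which takes part in Sema3a and Sema6a signalling, had 1.05, 18.8 and 21.1 CPM in PSCs, 17.1, 23.2 and 43.9 CPM in S100GFP+ cells and 4.72, 8.21 and 12.8 CPM in NG2DsRed+ cells. All PSC libraries but library 18 were above all NG2DsRed+ libraries (1.05 ± 0.30, adjusted p = 0.00530), and the difference from S100GFP+ cells did not pass with all libraries (-0.68 ± 0.31, adjusted p = 0.0764). It passed without S100GFP+ libraries 14, 17 and 22 (-0.89, adjusted p = 0.0433) and in the libraries under 25% of the Lars2 share (-1.07, adjusted p = 2.39e-04). Plxna3, a partner of Nrp2 for Sema3f, was low, with 0.175, 6.315 and 16.75 CPM in PSCs, 3.31, 5.835 and 8.82 CPM in S100GFP+ cells and 1.29, 2.975 and 3.80 CPM in NG2DsRed+ cells, and was higher in PSCs than in NG2DsRed+ cells (1.41 ± 0.37, adjusted p = 0.00250). Plxnc1, the receptor of Sema7a, had 2.295, 8.45 and 14.0 CPM in PSCs, 3.31, 19.0 and 33.7 CPM in S100GFP+ cells and 1.75, 6.48 and 13.6 CPM in NG2DsRed+ cells. It was lower in PSCs than in S100GFP+ cells (-1.20 ± 0.43, adjusted p = 0.0228), a call lost without S100GFP+ library 33 (-0.99, adjusted p = 0.0669) and in the libraries from 25% of the Lars2 share (-0.53, adjusted p = 0.505). Its S100GFP+ libraries 14, 17 and 22 had 3.31 to 8.56 CPM and the other 5 had 18.3 to 33.7 CPM, as with Sema4a.

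The neuropilins, co-receptors that bind class 3 semaphorins and also VEGF, had lower levels in PSCs than in either other group. Nrp1 had 36.1, 55.4 and 105 CPM in PSCs, 84.5, 169 and 371 CPM in S100GFP+ cells and 292, 465 and 621 CPM in NG2DsRed+ cells. PSCs lay wholly below NG2DsRed+ cells and 8 of 9 PSC libraries lay below all S100GFP+ libraries. The log2 fold change was -1.69 ± 0.26 against S100GFP+ cells (adjusted p = 2.70e-06) and -2.98 ± 0.26 against NG2DsRed+ cells (adjusted p = 1.42e-10). Without S100GFP+ libraries 14, 17 and 22, whose Nrp1 was 224 to 371 CPM, the first of these was -1.03. Nrp2, which binds Sema3b, Sema3f and Sema3g, had 20.7, 29.4 and 40.6 CPM in PSCs, 43.45, 71.5 and 123 CPM in S100GFP+ cells and 67.9, 89.7 and 124 CPM in NG2DsRed+ cells. Every PSC library was below every other library, with log2 fold changes of -1.29 ± 0.19 (adjusted p = 1.97e-06) and -1.62 ± 0.19 (adjusted p = 2.91e-08).

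**Figure D4:**
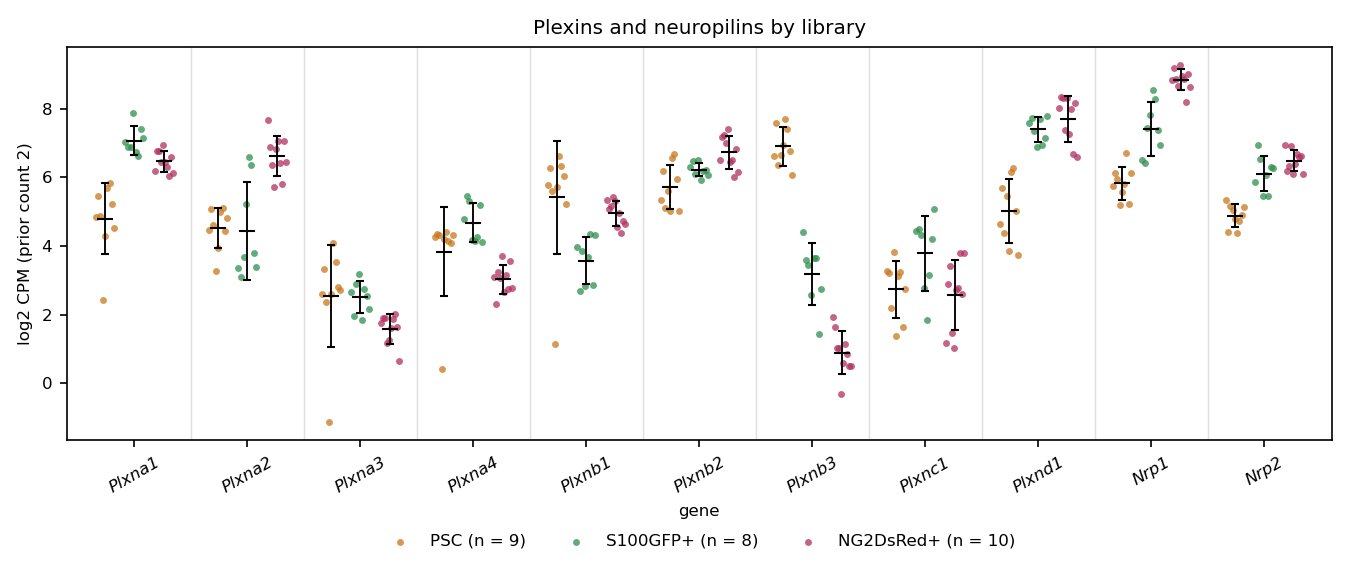
Log2 CPM (prior count 2) of the 9 plexins and 2 neuropilins, 1 point per library, with the mean and SD of each group in black. Plxnb3 is highest in PSCs, Plxna1, Plxnd1 and Nrp2 are lower in all PSC libraries than in all others, and the low PSC points of Plxna1, Plxna3, Plxna4 and Plxnb1 are library 18.

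Per kb of exon the receptors differed in makeup as well as in sum. The plexins summed to 46.4 ± 18.8 CPM per kb in PSCs (SD, n = 9), 58.4 ± 5.11 in S100GFP+ cells (n = 8) and 66.9 ± 19.2 in NG2DsRed+ cells (n = 10). Plxnb3 made up 42.35% of the PSC sum, followed by Plxnb2 (16.1%) and Plxnb1 (12.9%), all of class B. Plxnd1 made up 40.6% in S100GFP+ cells and 46.5% in NG2DsRed+ cells. The neuropilins summed to 8.61 ± 2.09, 25.85 ± 9.565 and 55.8 ± 9.15 CPM per kb, of which Nrp1 was 70.7%, 76.2% and 86.1%.

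Of 23 pairs of ligand and receptor listed from general knowledge of the family, 5 had both genes highest in the same group and 18 (78.3%) in different groups. Among all combinations of a semaphorin with a receptor of the family 64.5% were highest in different groups, and among any 2 genes tested 65.9%, and the pairs reuse 16 ligands and 11 receptors, so nothing is read from the share. The 5 were Sema4d with Plxnb1 in PSCs, and Sema3f with Nrp2, Sema3g with Nrp2, Sema4c with Plxnb2 and Sema6a with Plxna2 in NG2DsRed+ cells. For Sema3e and Plxnd1 the mean levels in PSCs, S100GFP+ cells and NG2DsRed+ cells were 11.6, 2.63 and 0.0861 CPM per kb for the ligand and 5.28, 23.7 and 31.15 CPM per kb for the receptor. Sema5a was at 4.76, 2.27 and 6.20 CPM per kb, where its receptor Plxnb3 was at 19.7, 1.58 and 0.269. Sema7a was at 1.60, 1.93 and 9.15 CPM per kb and its receptor Plxnc1 at 0.876, 2.01 and 0.834. The levels are of RNA in sorted populations and pairs were not tested.

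S100GFP+ libraries 14, 17 and 22 were above the other 5 without overlap in Sema3f, Sema6a, Sema7a, Plxna2 and Nrp1, and below them in Sema4a, Sema4d and Plxnc1, while 23 genes overlapped. The share of all genes that split in this way was not computed, so nothing is read from the number of members. These 3 libraries held counts on 25890 to 38568 genes, against 19669 to 23292 in the other 5, and Lars2, Gm23935 and Gm15564 took 32.33 to 39.08% of their counts, against 19.47 to 37.02%. The summed level of 8 endothelial markers was 758 to 2428 CPM in these 3 libraries and 128 to 189 CPM in the other 5, that of pericyte and smooth muscle markers 986 to 1647 against 246 to 856 CPM, and that of macrophage and leukocyte markers 1180 to 3690 against 5729 to 11140 CPM. Satellite cell and myoblast markers were at 46.6 to 78.3 against 18.9 to 30.0 CPM. Muscle fibre markers overlapped, at 286 to 632 against 171 to 371 CPM. Sema3f, Sema6a, Sema7a, Plxna2 and Nrp1, the genes above in these 3 libraries, all had their highest mean in NG2DsRed+ cells, the group with the most endothelial and pericyte markers. Without the 3 libraries, 11 genes were higher in PSCs than in S100GFP+ cells in place of 6, and 10 were lower, with 42.4% of the 16216 genes of that fit called. Sema3g, Sema4c, Sema6a, Sema7a and Plxna2 became higher, Plxna4 became lower and Sema3f lost its call. Between S100GFP+ and NG2DsRed+ cells the calls of Sema4g (0.84, adjusted p = 0.236), Sema6c (0.88, adjusted p = 0.124) and Plxna3 (0.895, adjusted p = 0.125) were lost, and those of Sema4b (1.66, adjusted p = 0.0489) and Sema4c were gained. Sema4b also passed between PSCs and NG2DsRed+ cells in that fit (1.44, adjusted p = 0.0423). With limma-voom and quality weights on all libraries, Sema3g (1.89), Sema4f (1.33), Sema6a (0.99), Plxna4 (-0.60) and Plxnb2 (-0.58) passed against S100GFP+ cells, with adjusted p of 4.16e-04 to 0.0347. The part of the other cells, of the number of genes with counts and of the share in these differences was not tested.

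PSC library 18 held counts on 14616 genes, against 20203 to 22533 in the other 8, and was the lowest PSC library for 21 of the 31 genes, where it was the lowest for 32.6% of the 10683 genes above 5 CPM. Its levels relative to the other PSC libraries moved with exon length, from a median log2 difference of 0.47 in the quintile of genes with the shortest exons to -0.65 in the quintile with the longest. The family's genes are long, with a median of 7720 exon bases (3298 for Sema7a to 18686 for Sema5a) against 4626 over the genes of that check, and 23 of 31 fall in the 2 longest quintiles. Without library 18, 7 genes were higher and 10 lower in PSCs than in S100GFP+ cells, and 12 were higher and 14 lower than in NG2DsRed+ cells. In that fit 51.7% and 48.4% of all 15315 genes were called, in place of 47% and 44% of 15330. The members gained were Sema3g and Sema4b (1.62, adjusted p = 0.0301).

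A further split runs through the groups. The genes Lars2, Gm23935 and Gm15564 took 3.64 to 36.57% of counts in PSC libraries, 19.47 to 39.08% in S100GFP+ libraries and 12.49 to 40.02% in NG2DsRed+ libraries. Sema4b, a class 4 semaphorin, followed this share. It had 45.3 to 77.6 CPM in the 5 PSC libraries under 25% and 5.95 to 10.5 CPM in the 4 at or above it, and 45.8 to 99.6 against 6.42 to 13.1 CPM in the S100GFP+ libraries (3 and 5). NG2DsRed+ libraries had 2.10 to 35.75 CPM and their sets overlapped. In the main fit Sema4b did not differ past the threshold between PSCs and S100GFP+ cells (0.23 ± 0.62, adjusted p = 0.785) or NG2DsRed+ cells (1.41 ± 0.59, adjusted p = 0.0554). Of the other members, Sema3b and Sema3g were higher and Sema4c, Sema4d and Plxnd1 lower in the PSC libraries under 25% without overlap, with Plxnd1 at 12.95 to 32.2 CPM against 43.45 to 76.8 CPM. How many of all genes split by this share was not counted, so the split is not read as particular to these members. Plxnd1 was lower in PSCs on both sides of the split, by log2 fold changes of -3.02 and -1.50 against S100GFP+ cells and of -2.82 and -2.07 against NG2DsRed+ cells under and above 25%. Sema3e and Plxnb3 were higher in PSCs in both sets against both groups, Sema3e by 2.32 and 2.16 and Plxnb3 by 3.53 and 3.87 against S100GFP+ cells. Against NG2DsRed+ cells the calls of Plxna4 (0.82, adjusted p = 0.188) and Plxnb1 (1.00, adjusted p = 0.157) were lost from 25% on, and that of Plxna3 under 25% (1.13, adjusted p = 0.0501). The 3 S100GFP+ libraries under 25% include none of libraries 14, 17 and 22. The 3 NG2DsRed+ libraries under 25% are 2, 28 and 35. Of these, 28 and 35 had the highest fibroblast sums and the lowest pericyte and smooth muscle sums of their group. The part of cell content in the results under 25% was not tested.

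**Figure D5:**
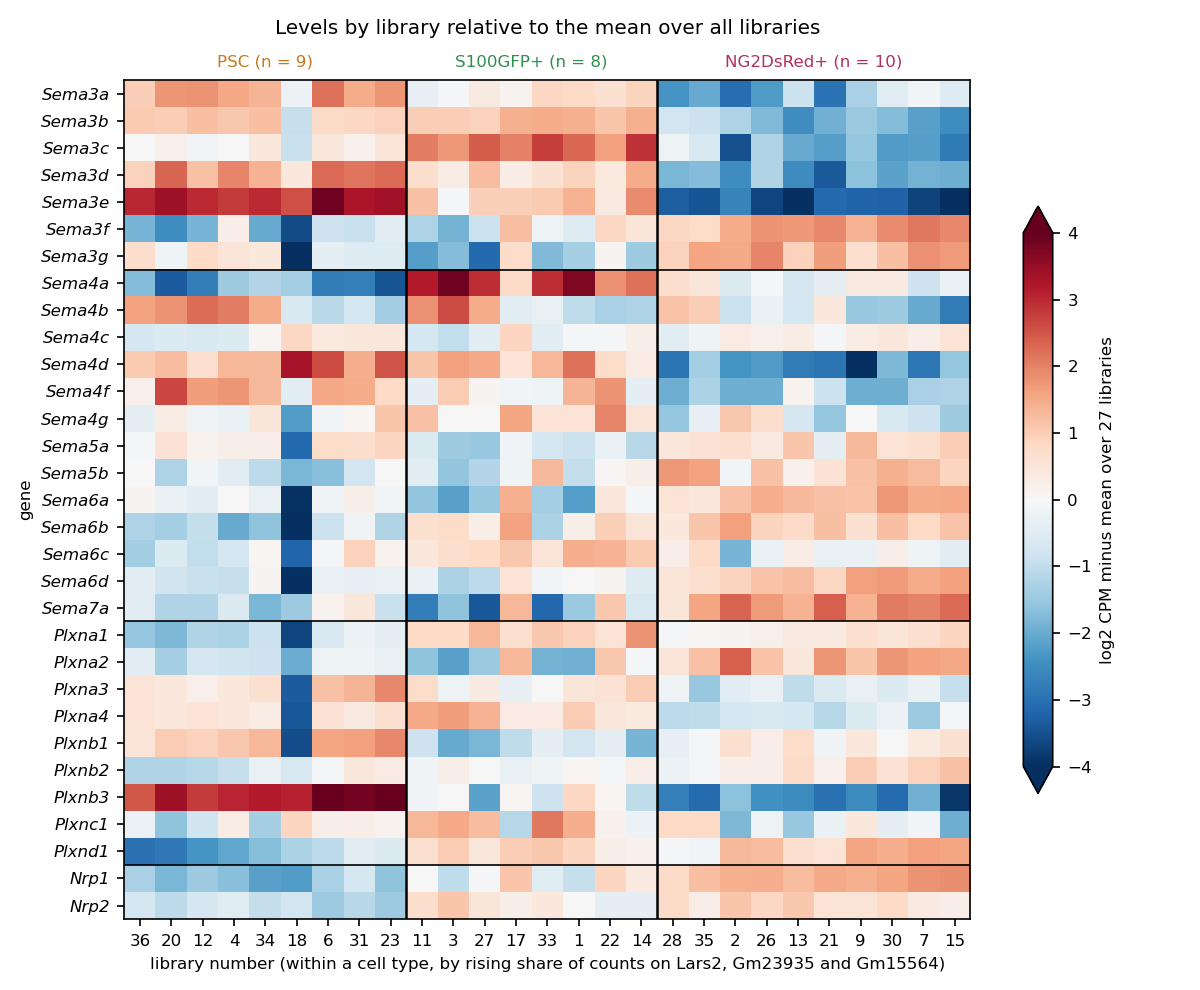
Log2 CPM of each gene in each of the 27 libraries minus its mean over all libraries, by role from class 3 semaphorins at the top to neuropilins at the bottom; within a group the libraries run by the rising share that Lars2, Gm23935 and Gm15564 took of counts. The Sema3e and Plxnb3 rows are red across all PSC libraries, PSC library 18 is blue for most genes, and Sema4b turns from red to blue with rising share in PSCs and S100GFP+ cells.

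Of 49 genes that act with the family (co-receptors, other ligands of neuropilins, and signalling proteins), 46 were tested and Crmp1, Dpysl4 and Dpysl5 fell below the filter. In PSCs 9 of them rose against S100GFP+ cells, 23 fell and 14 did not pass (69.6% called beside 47% of all genes, median log2 fold change -0.70), while 7 rose against NG2DsRed+ cells, 18 fell and 21 did not pass (54.3% beside 44%, median -0.33). The genes farthest up were adhesion molecules of the L1 family, which associate with neuropilins. Chl1 had a mean of 524 CPM in PSCs, 10.6 CPM in S100GFP+ cells and 2.78 CPM in NG2DsRed+ cells, with log2 fold changes of 5.62 ± 0.38 (adjusted p = 6.89e-13) and 7.55 ± 0.38 (adjusted p = 1.47e-15). L1cam had 297, 13.6 and 3.36 CPM, with 4.45 ± 0.45 (adjusted p = 1.91e-09) and 6.45 ± 0.45 (adjusted p = 1.57e-12). Every PSC library was above every other for both. Nrcam was higher than in NG2DsRed+ cells only (3.39 ± 0.50, adjusted p = 1.99e-06), with PSC library 18 below all NG2DsRed+ libraries, and Itga1, an integrin subunit, higher than in S100GFP+ cells (2.80 ± 0.33, adjusted p = 3.05e-08). Ptk7 was higher in PSCs than in S100GFP+ cells (1.45 ± 0.42, adjusted p = 0.00518), with overlap. Tiam1 was higher in PSCs than in NG2DsRed+ cells (1.34 ± 0.41, adjusted p = 0.00860), also with overlap.

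Among the partners that were lower, Tyrobp and Trem2, proteins of macrophages that associate with plexin signalling in immune cells, and the kinase Fes were lower in PSCs than in S100GFP+ cells by log2 fold changes of -7.33 ± 0.71, -5.55 ± 0.77 and -3.96 ± 0.33, in the comparison in which macrophage and leukocyte markers were 1180 to 11140 CPM in S100GFP+ cells and 35.5 to 570 CPM in PSCs. The neuropilin ligands Vegfa, Vegfc and Pgf were lower in PSCs than in both groups, Vegfa by -3.36 ± 0.26 against S100GFP+ cells (adjusted p = 1.14e-11) and Vegfc and Pgf by -4.31 ± 0.48 and -3.44 ± 0.42 against NG2DsRed+ cells (adjusted p = 1.91e-08 and 6.93e-08). Mical2, an actin-oxidising enzyme downstream of plexins, and Rnd1, a GTPase that binds them, were lower than in NG2DsRed+ cells by -3.56 ± 0.31 and -3.09 ± 0.50. Between S100GFP+ and NG2DsRed+ cells 16 partners were higher in the former and 12 in the latter (60.9% beside 33.3% of all genes), with Tyrobp, Trem2, Pak1 and Tiam1 leading one way (6.85, 6.02, 4.05 and 3.68) and Itga1, Flt1, Mical2 and Kdr the other (-2.75, -2.28, -2.20 and -1.99).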

How the data were processed

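RNA-seq of muscle cells sorted by FACS was used, for 9 PSC, 8 S100GFP+ and 10 NG2DsRed+ libraries. These are the 27 with a column of the 36 libraries the labels name, and the other 9 were not analysed here. The study's methods state that failed samples, judged by eye on pairs plots, were taken out. They count 7 S100GFP+ libraries after that step, where the table holds 8. Columns were matched to samples by library number. cDNA was amplified with SMART-Seq v4. The deposited table holds whole-number counts per gene without normalization. The authors' processing notes name HISAT2, HTSeq and GRCm38, and the sources used here give no versions, annotation or strand setting. Reads of overlapping genes may thus be shared. Totals ran from 5221655 to 9592875 counts, and PCR copies cannot be told from molecules, so floors (3 counts) cover counting error only. Of 52636 genes, 99.72% are in GENCODE M21 (GRCm38), which gave symbols, exons and coordinates; promoters are RefSeq's. No columns were identical, and replicates differed by more than counting noise (8.48 or more chi-square per degree of freedom).

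In R 4.3.3, edgeR 4.0.16 was run with TMM normalization, filterByExpr (minimum count 10, 15330 genes), 1 quasi-likelihood fit of the 3 groups and Benjamini-Hochberg adjustment over all genes at 0.05. SEs are the log2 fold change over the root of its F. Log2 CPM used a prior count of 2. The test was checked on simulated counts. All 31 members are named; of the partners, for each comparison the 4 with the largest fold change each way; of marker lists, the 3 highest genes. Libraries 14, 17, 18 and 22 and Lars2, Gm23935 and Gm15564 were known from earlier results. The members, lists, pairs, motifs and alternatives were chosen with earlier results of these data known. The sums of the Schwann lineage and myelinating Schwann lists are not reported here. Markers of satellite cells, muscle fibres, melanocytes and cartilage or tendon were also summed (ranges in the closing section). Alternatives were DESeq2 1.42.0, its size factors in edgeR, no filter, a mean count of 5 as filter, only the compared groups, limma-voom (limma 3.58.1) with quality weights, the Lars2 share as a term, leaving out libraries 14, 17 and 22, and leaving out each library. Added after seeing the data were fits within the sets under and from 25% of that share and without PSC library 18 with S100GFP+ 14, 17 and 22.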

Additional observations from a re-analysis of the deposited data

Results flagged for a closer look

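Of 93 sets of values (31 genes in 3 groups), 16 had a lowest or highest library farther from its neighbour than Dixon's 95% critical value allows (a gap over range above 0.493 for 9 libraries or 0.466 for 10), where chance gives about 1 in 20. In 13 of the 16 the library was PSC library 18, the one that also stood apart in genes with counts and in its length trend, and it was the lowest each time. It had 5.61 CPM of Sema3a (next lowest 13.4 CPM), 20.15 of Sema3b (66.2), 36.97 of Sema3c (63.2), 1.23 of Sema3g (17.3), 0.175 of Sema4g (1.37), 8.06 of Sema5a (69.4), 2.98 of Sema6a (36.8), 0.175 of Sema6b (1.58) and 0.350 of Sema6d (14.0). Among the plexins it had 5.08 CPM of Plxna1 (19.1), 0.175 of Plxna3 (4.90), 1.05 of Plxna4 (16.9) and 1.93 of Plxnb1 (36.95). The values of Sema4g, Sema6b and Plxna3 are 1 count each. Sema3e and Plxnb3, the genes highest in PSCs without overlap, were not among them. The part of library quality in these values was not tested.

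The other 3 were in NG2DsRed+ cells. Sema4f was highest in library 13, at 0.890 CPM from 5 counts (next 0.309 CPM). Sema6c was lowest in library 2, at 1.28 CPM from 9 counts (next 3.86 CPM), and Sema7a was lowest in library 28, at 11.4 CPM (next 21.6 CPM).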

How the results depend on the processing

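Of 93 member comparisons, 49 kept their direction and their side of the threshold in all 38 alternatives, among them 47 of the 65 called; 18 calls were lost in at least 1, of which 7 were lost on leaving out 1 library, and 1 of the 65 (Sema3f) also changed sign. On leaving out each library, the counts higher and lower ran from 6 to 7 and 9 to 11 for PSCs against S100GFP+ cells, 10 to 12 and 14 to 14 against NG2DsRed+ cells, and 12 to 15 and 10 to 11 for S100GFP+ against NG2DsRed+ cells. For the partners they ran from 9 to 11 and 22 to 24, 7 to 8 and 16 to 20, and 15 to 17 and 11 to 14. Of all genes, 43.9 to 51.7%, 41.5 to 48.4% and 29.7 to 38.8% were called in these fits. The members higher in PSCs than in S100GFP+ cells numbered 11 without S100GFP+ libraries 14, 17 and 22, 10 without these and PSC library 18, and 10 within libraries under 25% of the Lars2 share. These fits called 42.4%, 48.2% and 41.1% of all genes in either direction. Partners higher numbered 14 in PSCs against S100GFP+ cells without all 4 of those libraries, and, under 25%, 3 in PSCs against NG2DsRed+ cells and 9 in S100GFP+ against NG2DsRed+ cells. From 25% on, 15 partners were lower in PSCs than in S100GFP+ cells. In the same order, 48.2%, 31.5%, 22.8% and 32.3% of all genes were called in either direction. Over all genes, no filter gave 16556 calls for PSCs against S100GFP+ cells (23.6% higher, median log2 fold change -0.97) in place of 7198 (48.8%), and 10586 for S100GFP+ against NG2DsRed+ cells (77.4% higher, median 0.78) in place of 5099 (54.3%). DESeq2's Wald test gave medians of -0.90 and 0.58 for them, and 64.8% higher for the latter. Without libraries 14, 17 and 22 the first median was 0.16.

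Changes of sign for PSCs against S100GFP+ cells were, without libraries 14, 17 and 22, Sema4b (-0.22), Sema7a (1.81) and Plxna2 (1.22), and with PSC library 18 left out too, Sema4b (-0.092), Sema6d (0.092), Sema7a (1.89) and Plxna2 (1.32). Under 25% of the share they were Sema3b (0.16), Sema3f (0.13), Sema4b (-0.18), Sema4d (-0.29), Sema5b (0.59), Sema6d (0.30), Sema7a (1.56) and Plxna2 (0.98), and from 25% on Sema3g (-0.41), Sema4b (-0.11), Sema6a (-0.53) and Plxnb2 (0.11). With the share as a term they were Sema4b (-1.21, adjusted p = 0.00273) and Sema7a (0.41), and with limma-voom Sema7a (1.08) and Plxna2 (0.47). Against NG2DsRed+ cells they were Sema4b (-0.061) and Sema4c (0.18) with the share as a term, Sema4g (-0.058) and Plxnc1 (-0.91) under 25%, Sema4b (-0.065), Sema4c (0.25) and Sema6c (0.17) from 25% on, and Plxnc1 (-0.082) without the 4 libraries. For S100GFP+ against NG2DsRed+ cells under 25% they were Plxnb2 (0.051), Plxnd1 (0.20) and Nrp2 (0.050). On leaving out single libraries, Sema6a against S100GFP+ cells ran from -0.11 to 0.60, Sema7a from -0.46 to 0.30 and Plxnc1 against NG2DsRed+ cells from -0.052 to 0.27. Plxna3 between S100GFP+ and NG2DsRed+ cells (1.00, adjusted p = 0.0419) was lost without any of S100GFP+ libraries 1, 11, 14, 22 and 27 or NG2DsRed+ libraries 13, 15, 21, 30 and 35 (0.88 to 1.00). Plxnc1 between these groups (1.27, adjusted p = 0.0199) was lost without S100GFP+ library 33 (1.05, adjusted p = 0.0636). Sema4b against NG2DsRed+ cells passed without any of S100GFP+ libraries 3 and 11, PSC libraries 6, 18, 23 and 31 and NG2DsRed+ libraries 28 and 35 (1.40 to 1.78). Apart from the fewer libraries in these fits, the cause was not tested. No paired analysis was possible because the sources used here do not state which libraries, if any, came from the same mouse.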

Other observations

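The remaining marker lists were summed per library. Satellite cell and myoblast markers (Vcam1, Pax7 and Cdh15 leading) were at 8.41 to 35.5 CPM in PSCs, 18.9 to 78.3 CPM in S100GFP+ cells and 17.1 to 52.1 CPM in NG2DsRed+ cells, muscle fibre markers (Acta1, Ttn, Tnnt3) at 194 to 1733, 171 to 632 and 165 to 699 CPM, and melanocyte markers (Mitf, Tyrp1, Kit) at 22.4 to 64.8, 35.6 to 53.4 and 15.5 to 37.9 CPM. Markers of cartilage and tendon (Col2a1, Tnmd, Chad) were at 53.3 to 471 CPM in S100GFP+ cells and 25.1 to 149 CPM in NG2DsRed+ cells. In PSCs they were at 3.44 to 46.4 CPM in 8 libraries and at 4567 CPM in library 31. Leaving out PSC library 31 gave 2.14 for Sema3e and 3.57 for Plxnb3 on the log2 scale against S100GFP+ cells.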
